A study of Mus musculus with 6 samples.

Results

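The nuclear-encoded subunits of oxidative phosphorylation were followed, complex by complex, in the spleen of mice injected with cadmium chloride. The set holds every probe whose annotated symbol starts with Ndufa, Ndufb, Ndufc, Ndufs, Ndufv, Uqcr, Cox4, Cox5, Cox6, Cox7, Cox8 or Atp5, or is Sdha, Sdhb, Sdhc or Sdhd, without the Ndufaf assembly factors. This rule took 122 of the 45281 probes on the array and 79 genes. Of these, 77 were subunits. The other genes were Cox7a2l, which encodes a factor that joins respiratory complexes into supercomplexes, and the pseudogene Ndufs5-ps. Detection on at least 2 arrays was met by 97 of the 122 probes and by 68 of the 77 subunit genes, and 62 of the 68 were detected on all 6 arrays. By complex, the genes that passed were 33 of 34 for complex I, 3 of 4 for II, 6 of 7 for III, 11 of 16 for IV and 15 of 16 for V. The subunits that did not pass were Ndufs1, Sdha, Uqcrfs1, Cox4i2, Cox7b, Cox7b2, Cox8b, Cox8c and Atp5md. Subunits encoded by mitochondrial DNA were not analysed here.

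All mice were of the outbred ICR stock, were 28 days old and gave spleen RNA 24 h after 1 subcutaneous injection. The groups received saline alone, cadmium chloride at 5 µmol/kg body weight, or cadmium chloride at 10 µmol/kg, each in 200 µL, and no genotype or other agent was named for any group. Each group had 2 Illumina bead arrays. How many of the 7 to 8 mice in a group contributed to an array is not given in the labels, so each p-value reflects only how far these arrays scatter, and that scatter may be technical.

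Oxidative phosphorylation passes electrons from NADH (complex I) or succinate (complex II) through complex III and cytochrome c to oxygen at complex IV. Complexes I, III and IV pump protons across the inner mitochondrial membrane, and complex V, the ATP synthase, uses the returning protons to make ATP. Spleen cells such as dividing lymphoblasts and erythroid precursors build mitochondria as they grow, and cadmium is known as a toxicant of mitochondrial respiration.

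The arrays differed in a feature that has to be stated before the subunits. Genes of pancreatic acinar cells, the digestive enzyme cells of an organ next to the spleen, had mean log2 signals of 4.78 and 12.84 on saline arrays 1 and 2, 12.46 and 11.48 on the arrays at 5 µmol/kg, and 4.98 and 12.23 on arrays 1 and 2 at 10 µmol/kg. All 25 were detected on the 4 bright arrays. Saline array 1 detected 7 and the first array of the 10 µmol/kg group 11 of them. They made up 1.75% to 3.72% of the total signal on the bright arrays and 0.0065% and 0.013% on the other 2. Spleen cell markers were present on every array: 14 B cell, 13 T cell and 16 macrophage genes passed the filter, and between 12 and 16 of each list were detected on each array. In bulk tissue, fewer cells of a type and less RNA per cell cannot be told apart.

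Promoters of 5 subunit genes described below are shown as examples: Ndufs4 and Ndufc1 of complex I, Sdhb of complex II, Uqcrc1 of complex III and Atp5pb of complex V. All 5 had a higher mean at 5 µmol/kg than in saline, none belongs to complex IV, and Uqcrc1 was named after its values were seen. Each runs 5′ to 3′ in the direction of transcription, from 250 bases before the RefSeq start of the gene to 50 bases after it, in the assembly GRCm38.p6. Capitals mark matches to 3 motifs of factors known to regulate respiratory genes, searched on both strands: GCGCA and GCGC with any 1 base (N) between them for NRF1, CCGGAAG for ETS factors such as GABP, and AAGATG followed directly by GCG for YY1.

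The Ndufs4 promoter lay at chr13:114388045-114388344 on the minus strand, with 1 YY1 match that begins 35 bases after the start.
Ndufs4: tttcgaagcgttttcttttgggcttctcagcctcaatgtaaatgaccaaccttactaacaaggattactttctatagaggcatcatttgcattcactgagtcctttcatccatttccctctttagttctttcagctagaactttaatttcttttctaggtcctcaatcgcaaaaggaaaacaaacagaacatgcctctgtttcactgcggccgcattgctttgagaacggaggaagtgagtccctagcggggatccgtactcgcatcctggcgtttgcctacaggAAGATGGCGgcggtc
The Ndufc1 promoter lay at chr3:51408906-51409205 on the minus strand, with 1 YY1 match that begins 22 bases after the start.
Ndufc1: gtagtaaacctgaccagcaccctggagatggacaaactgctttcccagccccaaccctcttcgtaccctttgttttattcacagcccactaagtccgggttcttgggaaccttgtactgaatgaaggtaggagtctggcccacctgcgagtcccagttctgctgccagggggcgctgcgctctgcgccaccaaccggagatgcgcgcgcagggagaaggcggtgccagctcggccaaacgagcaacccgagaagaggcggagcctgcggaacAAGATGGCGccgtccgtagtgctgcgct
The Sdhb promoter lay at chr4:140961021-140961320 on the plus strand, with 1 ETS match that begins 6 bases after the start.
Sdhb: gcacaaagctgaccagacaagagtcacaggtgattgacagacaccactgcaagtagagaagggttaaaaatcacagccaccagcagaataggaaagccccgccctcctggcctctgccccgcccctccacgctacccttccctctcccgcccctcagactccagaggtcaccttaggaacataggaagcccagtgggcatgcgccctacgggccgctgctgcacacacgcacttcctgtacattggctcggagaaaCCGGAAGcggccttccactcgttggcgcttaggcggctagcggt
The Uqcrc1 promoter lay at chr9:108936398-108936697 on the plus strand, with 2 NRF1 matches.
Uqcrc1: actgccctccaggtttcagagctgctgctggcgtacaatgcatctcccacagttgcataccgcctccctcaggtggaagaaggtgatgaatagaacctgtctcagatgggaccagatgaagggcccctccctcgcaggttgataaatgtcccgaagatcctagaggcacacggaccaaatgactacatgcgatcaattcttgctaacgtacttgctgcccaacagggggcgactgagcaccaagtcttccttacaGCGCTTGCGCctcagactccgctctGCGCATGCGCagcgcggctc
The Atp5pb promoter lay at chr3:105959214-105959513 on the minus strand and held none of the 3 motifs.
Atp5pb: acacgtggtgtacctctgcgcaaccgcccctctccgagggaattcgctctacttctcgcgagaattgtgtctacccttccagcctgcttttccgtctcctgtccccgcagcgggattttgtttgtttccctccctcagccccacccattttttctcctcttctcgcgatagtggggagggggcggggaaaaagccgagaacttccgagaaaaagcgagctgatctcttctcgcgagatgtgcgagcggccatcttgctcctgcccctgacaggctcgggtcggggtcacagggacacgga

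RefSeq promoters were matched by symbol for 58 of the 68 subunit genes. The NRF1 motif was found in 15 of these 58 (25.9%), against 10.7% of the 8753 tested genes with a promoter and 5.19% of all 27025 genes in the table. The YY1 motif was found in 7 (12.1%), against 3.36% of tested genes and 1.64% of all genes. For the ETS motif the shares were 25.9%, 19.0% and 9.93% in the same order, and for the CCAAT box, searched as CCAAT and not capitalised above, 41.4%, 43.0% and 41.1%. By complex, the NRF1 motif was in 6 of 31 promoters of complex I, 1 of 2 of II, 1 of 4 of III, 1 of 8 of IV and 6 of 13 of V. All 7 promoters with the YY1 motif belonged to complexes I (5) and V (2). No 2 matches overlapped in the promoters shown, and a match describes these letters only.

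Across the 68 subunits, most had their highest mean at the lower dose. The mean was highest at 5 µmol/kg for 54 subunits (79.4%, against 38.3% of the 13559 genes and probes tested), at 10 µmol/kg for 5 and in saline for 9. It was lowest in saline for 41 subunits, at 5 µmol/kg for 4 and at 10 µmol/kg for 23. The pattern was present in every complex, with 28 of 33 subunits of complex I highest at 5 µmol/kg, 2 of 3 of II, 5 of 6 of III, 8 of 11 of IV and 11 of 15 of V. As a share of the total signal on an array, the 68 probes gave 1.32% and 1.61% in saline, 1.80% and 1.70% at 5 µmol/kg, and 1.48% and 1.57% at 10 µmol/kg. Both arrays at 5 µmol/kg therefore held a larger share than any other array, and saline array 1 held the smallest. No subunit passed the moderated F test over the 3 groups after Benjamini-Hochberg adjustment (0 of 13559 tested passed, percent called 0), and 1 of 68 had an unadjusted p under 0.05, against 3.34% of all tested.

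**Figure D1:**
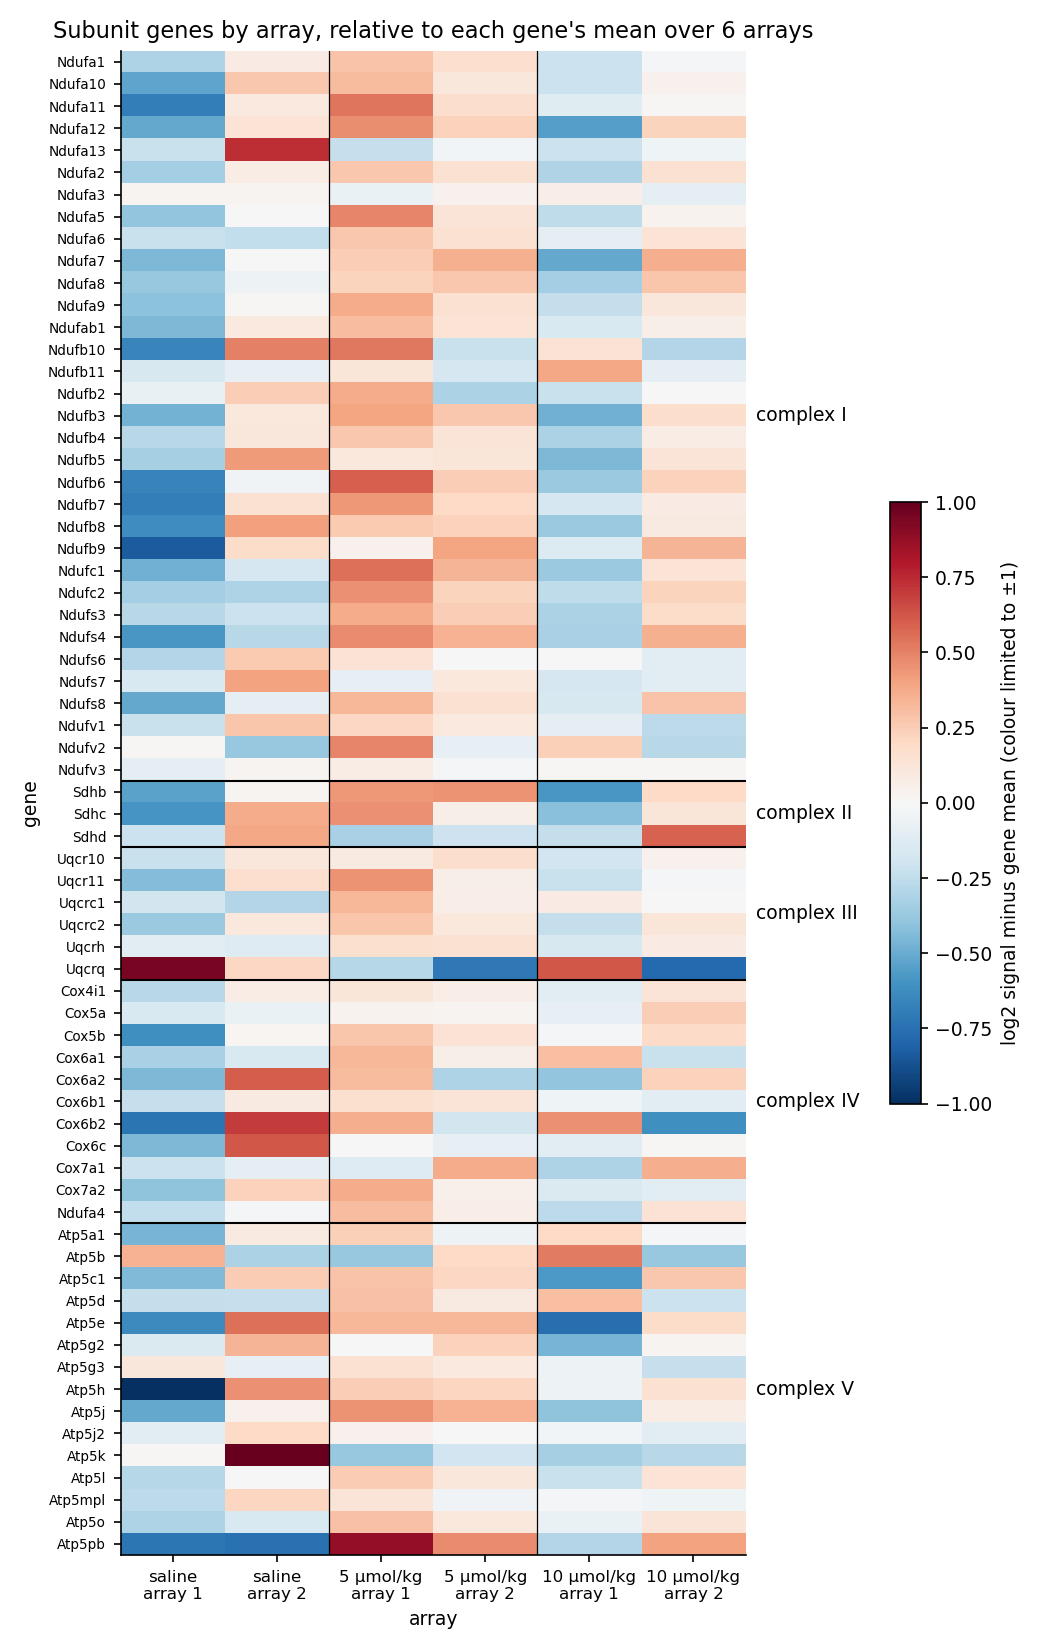
Heat map of the 68 subunits that passed the detection filter (rows, grouped by complex) on the 6 arrays (columns, in dose order); colour is the log2 signal of a gene minus its mean over the arrays. Saline array 1 was the lowest of the 6 arrays for 39 subunits and array 1 at 5 µmol/kg the highest for 39.

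The 2 saline arrays did not lie together for these genes. Saline array 2 exceeded saline array 1 in 60 of 68 subunits, with a median gap of 0.43 on the log2 scale. Over all genes tested it was higher in 52.8% with a median gap of 0.04, which quantile normalization keeps near 0. Regardless of sign, the median size of the gap was 0.47 for subunits and 0.36 for all genes tested. At 10 µmol/kg array 2 exceeded array 1 in 50 of 68 (median 0.24), and at 5 µmol/kg in 15 of 68 (median −0.13). Saline array 1 was the lowest of the 6 arrays for 57.4% of subunits, against 22.9% of all genes tested, and array 1 at 5 µmol/kg the highest for 57.4%, against 18.5%. With each gene centred on its mean, the subunit median was −0.33 and 0.09 in saline, 0.27 and 0.12 at 5 µmol/kg, and −0.20 and 0.08 at 10 µmol/kg. The lower arrays, saline array 1 and array 1 at 10 µmol/kg, were the 2 arrays dim for acinar genes, whose part in the subunit values was not tested.

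The first comparison asked which spleen genes differed after the lower dose, 5 µmol/kg, relative to saline. The subunits were higher at this dose by a median of 0.34 on the log2 scale, with 57 of 68 above 0, while the median of all genes tested was −0.01 and 48.7% were above 0. No subunit and no other gene passed limma's moderated test after Benjamini-Hochberg adjustment (0% called, smallest adjusted p = 0.525, and 1257 of 13559, or 9.27%, had an unadjusted p under 0.05). At an unadjusted p under 0.05, 4 subunits were higher and 0 lower, namely Ndufs4, Ndufc1, Ndufc2 and Atp5pb, against 4.58% and 4.69% of all tested. Both arrays at 5 µmol/kg lay above both saline arrays for 32 subunits, or below both for 2, against 21.8% and 25.2% of all tested. Medians by complex were 0.40 for I (29 of 33 above 0), 0.37 for II (2 of 3), 0.30 for III (5 of 6), 0.21 for IV (9 of 11) and 0.33 for V (12 of 15). Without saline array 1 the subunit median was 0.09, with 43 of 68 above 0, and the medians of complexes I to V were 0.15, −0.11, 0.09, 0.05 and −0.0011; without saline array 2 it was 0.53, with 63 of 68 above 0. With the acinar level as a covariate it was 0.17.

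The higher dose, 10 µmol/kg, was set against the same saline arrays, so both dose comparisons share their control values. The subunit median was 0.07, with 43 of 68 above 0, beside −0.02 and 46.9% for all genes tested. No gene passed after adjustment (limma, 0% called, smallest adjusted p = 0.99996, and 221 of 13559, or 1.63%, had an unadjusted p under 0.05). Atp5pb was the 1 subunit with an unadjusted p under 0.05 on the higher side and none was on the lower side, against 0.996% and 0.634% of all tested. Non-overlapping groups were found for 6 subunits on the higher side (Ndufa6, Ndufc2, Uqcrc1, Atp5d, Atp5o and Atp5pb) and 1 on the lower side (Atp5k), against 11% and 11.5% of all tested. By complex the medians were 0.08 for I, 0.06 for II, 0.04 for III, 0.07 for IV and 0.06 for V. The direction depended on the saline array: the subunit median was −0.16, with 20 of 68 above 0, without saline array 1 and 0.30, with 60 of 68 above 0, without saline array 2.

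The doses were also compared with each other, which does not use the saline arrays. It shares the arrays at 5 µmol/kg with the first comparison and those at 10 µmol/kg with the second, so it is not independent of them. For 10 against 5 µmol/kg the subunit median was −0.23 on the log2 scale, with 61 of 68 below 0 and 7 above, while the median of all genes tested was 0.01 and 50.8% were above 0. Both arrays at 10 µmol/kg lay below both at 5 µmol/kg for 29 subunits and above both for 0, against 15.7% and 15.2% of all tested. Medians were −0.30 for complex I (31 of 33 below 0), −0.41 for II (2 of 3), −0.20 for III (5 of 6), −0.12 for IV (10 of 11) and −0.18 for V (13 of 15). With each array left out in turn these ran from −0.48 to −0.12 for I, −0.68 to −0.14 for II, −0.32 to −0.15 for III, −0.23 to −0.02 for IV and −0.26 to −0.11 for V. The values nearest 0 all came without array 1 at 10 µmol/kg, and those farthest from 0 without array 2 at 10 µmol/kg, or for IV without array 2 at 5 µmol/kg. No gene passed after adjustment (limma, 0% called, smallest adjusted p = 0.981, and 130 of 13559 had an unadjusted p under 0.05). With each subunit read on its brightest probe, 0 had an unadjusted p under 0.05 in either direction, against 0.487% higher and 0.472% lower of all tested. The subunit median ranged from −0.37 to −0.12 when each array was left out in turn, with −0.12 without array 1 at 10 µmol/kg, and was −0.09 with the acinar level as a covariate.

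**Figure D2:**
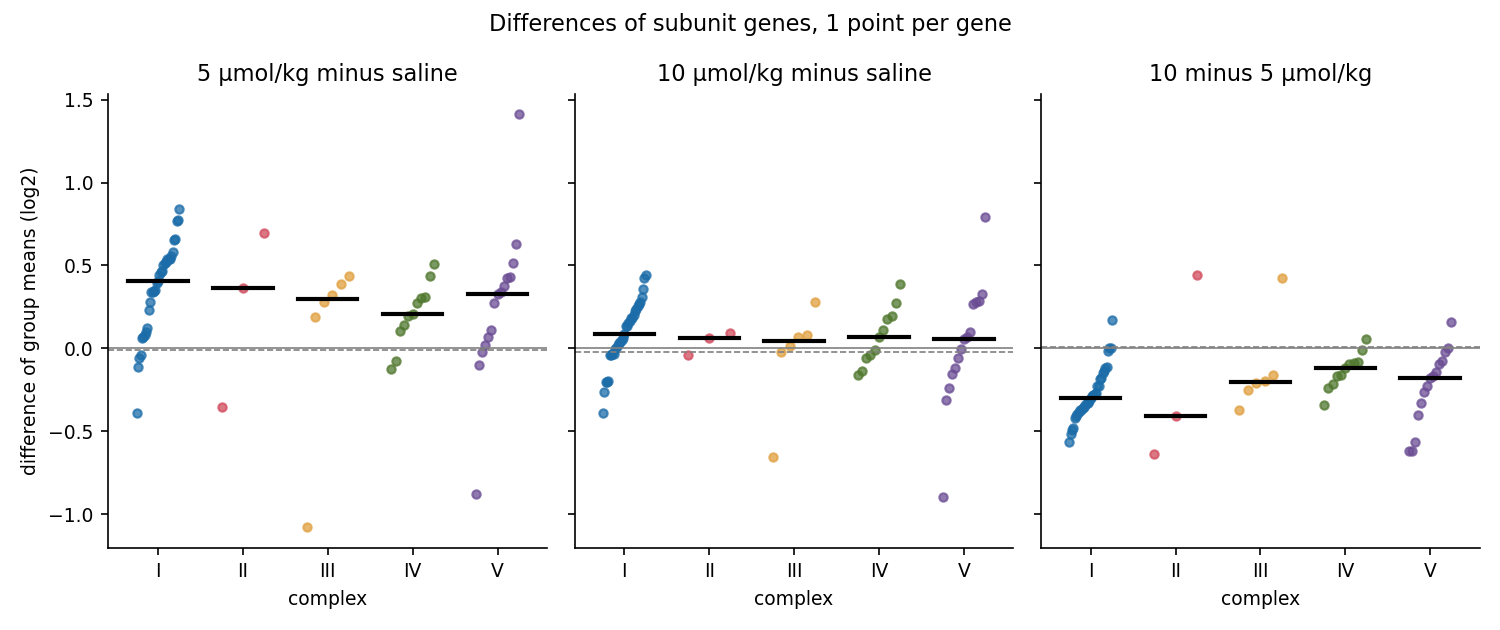
Log2 differences of the 68 subunits by complex, 1 point per gene, for 5 µmol/kg minus saline, 10 µmol/kg minus saline and 10 minus 5 µmol/kg, with each complex's median as a bar and the median of all genes tested as a dashed line. Complex medians lay between 0.21 and 0.40, between 0.04 and 0.08, and between −0.41 and −0.12 in these 3 comparisons.

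Complex I, the NADH dehydrogenase, was represented by 33 genes, 5 of them core subunits of the arm that carries electrons and 28 accessory subunits. The 5 µmol/kg minus saline median was 0.39 for the core and 0.42 for the accessory subunits, and 19 of the 33 genes had both arrays at 5 µmol/kg above both saline arrays, against 21.8% of all tested. Ndufs4, an accessory subunit of the peripheral arm whose loss causes Leigh syndrome in people, had log2 signals of 8.69 and 8.996 in saline, 9.75 and 9.62 at 5 µmol/kg, and 8.95 and 9.62 at 10 µmol/kg. Both arrays at 5 µmol/kg were above both saline arrays, while at 10 µmol/kg array 1 lay between the saline arrays and array 2 equalled the lower array at 5 µmol/kg to 2 decimals. Ndufs4 differed from saline by 0.84 ± 0.30 (SE) at 5 µmol/kg, with an unadjusted p of 0.0273 and an adjusted p of 0.525 in limma, and 0.44 ± 0.30 (SE) at 10 µmol/kg. The 3 further probes of Ndufs4 were also higher at 5 µmol/kg, by 0.12, 0.32 and 0.52, and the mean over its probes gave 0.45.

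Ndufc1, a small accessory subunit of the membrane arm, had log2 signals of 9.21 and 9.52 in saline, 10.24 and 10.03 at 5 µmol/kg, and 9.31 and 9.82 at 10 µmol/kg. Array 1 at 10 µmol/kg lay between the saline arrays, and both arrays at 10 µmol/kg lay below both at 5 µmol/kg. Its differences were 0.77 ± 0.28 (SE) for 5 µmol/kg against saline (unadjusted p = 0.0289, limma) and −0.57 ± 0.28 (SE) for 10 against 5 µmol/kg (unadjusted p = 0.0826). Another probe of Ndufc1, detected on all 6 arrays, gave 0.95 and −0.32. On that probe array 2 at 10 µmol/kg was the highest of all, at 8.62, so the doses overlapped. Ndufc2, which pairs with Ndufc1 in the membrane arm, had log2 signals of 9.68 and 9.71 in saline, 10.47 and 10.23 at 5 µmol/kg, and 9.76 and 10.23 at 10 µmol/kg. Its saline arrays nearly coincided and lay below the 4 cadmium arrays, with a difference of 0.66 at 5 µmol/kg (unadjusted p = 0.0402).

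Ndufv1, Ndufv2 and Ndufv3 form the tip of complex I where NADH binds. Ndufv1, the flavoprotein that oxidises NADH, had log2 signals of 10.32 and 10.82 in saline, 10.74 and 10.64 at 5 µmol/kg, and 10.45 and 10.27 at 10 µmol/kg. Its arrays at 5 µmol/kg lay between the saline arrays, and the difference was 0.12 (95% interval −0.50 to 0.75). Ndufv2, an iron-sulfur subunit beside it, differed by 0.39 and the accessory subunit Ndufv3 by 0.06, both with overlapping groups at 5 µmol/kg. Ndufs6, a zinc-binding accessory subunit needed for a late assembly step, had log2 signals of 11.004 and 11.56 in saline, 11.44 and 11.29 at 5 µmol/kg, and 11.30 and 11.19 at 10 µmol/kg, so that both cadmium groups lay within the saline range. Ndufb8, of the membrane arm, had log2 signals of 10.60 and 11.62 in saline, 11.48 and 11.44 at 5 µmol/kg, and 10.84 and 11.30 at 10 µmol/kg. Its saline arrays were the lowest and the highest of the 6. Ndufa13, an accessory subunit also known as GRIM-19, had the lowest difference in complex I, −0.39 ± 0.35 (SE) at 5 µmol/kg, with saline array 2 at 11.50 and the other 5 arrays between 10.52 and 10.73. Ndufb11 passed the filter through array 1 of each dose alone and had log2 signals of 4.59 and 4.67 in saline, 4.87 and 4.57 at 5 µmol/kg, and 5.13 and 4.65 at 10 µmol/kg. The undetected array at 5 µmol/kg lay below both undetected saline arrays, and the groups overlapped in all comparisons.

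**Figure D3:**
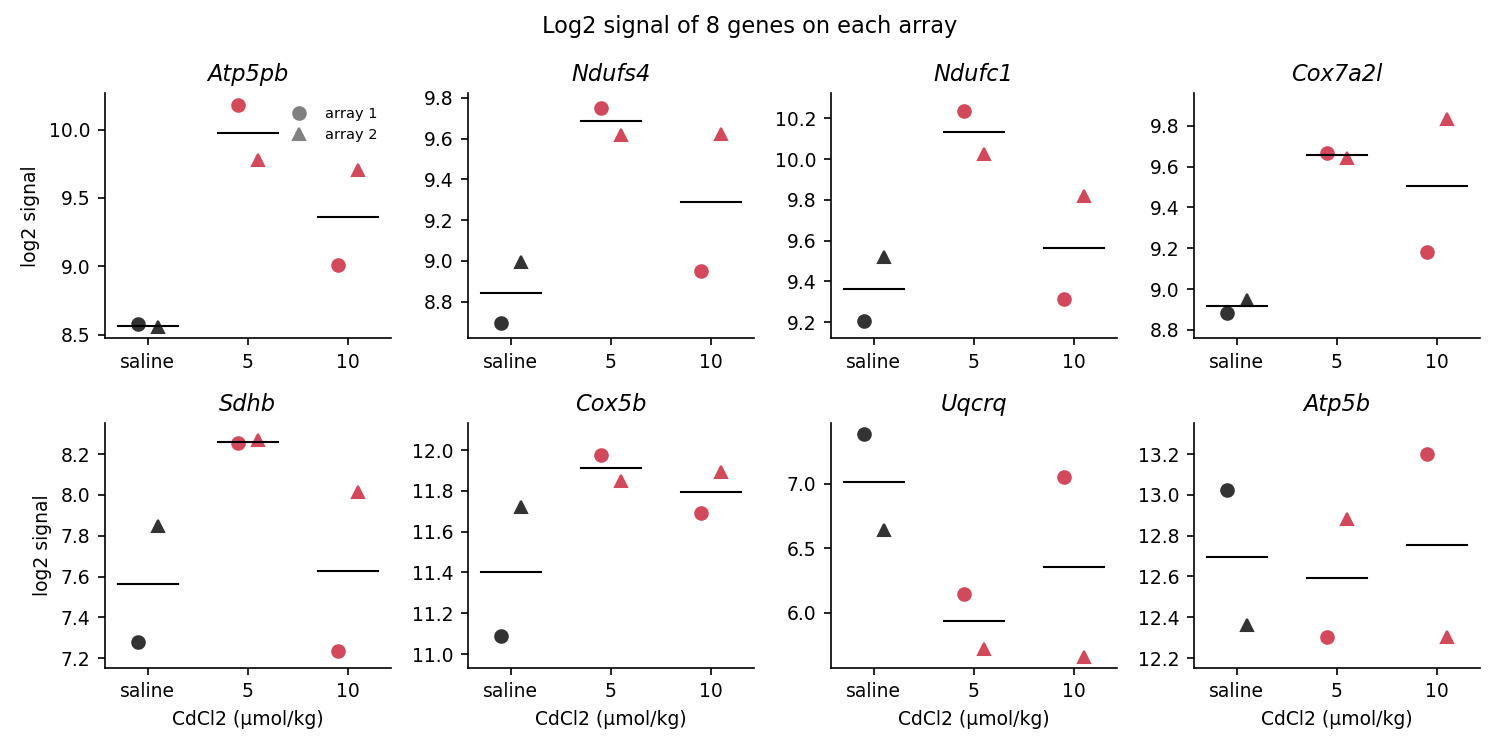
Log2 signal of single subunits, and of Cox7a2l, which is not a subunit, on each array, 1 panel per gene. Saline, 5 and 10 µmol/kg run from left to right, points are arrays and bars the mean of the 2 arrays. Atp5pb had 8.58 and 8.55 in saline, 10.18 and 9.77 at 5 µmol/kg, and 9.01 and 9.71 at 10 µmol/kg.

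Complex II, succinate dehydrogenase, also belongs to the citric acid cycle and is encoded by 4 nuclear genes, of which 3 passed. Sdhb, its iron-sulfur subunit, had log2 signals of 7.28 and 7.85 in saline, 8.25 and 8.27 at 5 µmol/kg, and 7.24 and 8.01 at 10 µmol/kg. On this probe both arrays at 5 µmol/kg were the highest, whereas array 1 at 10 µmol/kg was the lowest of all. The difference was 0.70 ± 0.34 (SE) for 5 µmol/kg against saline (unadjusted p = 0.082, adjusted p = 0.535, limma) and −0.63 ± 0.34 (SE) for 10 against 5 µmol/kg. Leaving out each array in turn gave 0.41 (without saline array 1) to 0.98 (without saline array 2) for the first and −1.02 (without array 2 at 10 µmol/kg) to −0.25 (without array 1) for the second. Another probe of Sdhb, detected on all 6 arrays, gave 0.71 and −0.21 in these comparisons. Its highest value was on array 2 at 10 µmol/kg, at 8.29, and its lowest on saline array 1, at 6.74. A dim probe of Sdhb gave 0.32 and −0.20. Sdhc, a membrane anchor that binds haem, had log2 signals of 8.95 and 9.91 in saline, 9.996 and 9.60 at 5 µmol/kg, and 9.12 and 9.66 at 10 µmol/kg, and its 3 groups overlapped. Sdhd, the other anchor, was detected only on array 2 in saline and on array 2 at 10 µmol/kg, and had log2 signals of 4.62 and 5.22 in saline, 4.51 and 4.62 at 5 µmol/kg, and 4.5955 and 5.42 at 10 µmol/kg. Array 1 in saline and array 1 at 10 µmol/kg lay between the 2 undetected arrays at 5 µmol/kg, so the groups overlapped. Sdha, the flavoprotein that oxidises succinate, did not pass the detection filter.

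Complex III, the cytochrome bc1 complex, had 6 genes, and its members parted in direction. Uqcrc1, a core protein of the matrix side whose promoter holds 2 NRF1 motifs, had log2 signals of 10.14 and 10.02 in saline, 10.65 and 10.39 at 5 µmol/kg, and 10.40 and 10.31 at 10 µmol/kg. All 4 cadmium arrays lay above both saline arrays, with differences of 0.44 ± 0.23 (SE) at 5 µmol/kg and 0.28 ± 0.23 (SE) at 10 µmol/kg (unadjusted p = 0.102 and 0.272, limma). The hinge protein Uqcrh, which helps cytochrome c bind, had log2 signals of 11.999 and 11.98 in saline, 12.27 and 12.26 at 5 µmol/kg, and 11.95 and 12.19 at 10 µmol/kg. The 2 arrays at 5 µmol/kg lay above the other 4, and the difference at 5 µmol/kg was 0.28 (95% interval −0.26 to 0.82). Uqcrq, a small ubiquinone-binding subunit, had lower values at 5 µmol/kg: it had log2 signals of 7.38 and 6.65 in saline, 6.15 and 5.72 at 5 µmol/kg, and 7.06 and 5.66 at 10 µmol/kg. Both arrays at 5 µmol/kg were below both saline arrays, with a difference of −1.08 ± 0.50 (SE) (unadjusted p = 0.0689, adjusted p = 0.528, limma), and the 2 arrays at 10 µmol/kg lay above and below the arrays at 5 µmol/kg. Uqcrc2, Uqcr10 and Uqcr11 differed from saline by 0.32, 0.19 and 0.39 at 5 µmol/kg, each with overlapping groups, and Uqcrfs1, the Rieske iron-sulfur protein, did not pass the filter. Uqcr10 and Uqcr11 had both arrays at 10 µmol/kg below both at 5 µmol/kg, with differences of −0.21 and −0.37.

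Complex IV, cytochrome c oxidase, reduces oxygen and has subunits with tissue isoforms. The 8 genes of the general forms had a median of 0.26 for 5 µmol/kg against saline, with 5 not overlapping on the higher side, and the 3 genes of isoforms typical of muscle or testis (Cox6a2, Cox6b2 and Cox7a1) had a median of 0.11 with 0 not overlapping, beside 21.8% of all tested. Cox5b, a zinc-binding subunit, had log2 signals of 11.09 and 11.72 in saline, 11.98 and 11.85 at 5 µmol/kg, and 11.69 and 11.89 at 10 µmol/kg. Saline array 1 stood below the other 5 arrays, which lay between 11.69 and 11.98, and the difference at 5 µmol/kg was 0.51 ± 0.28 (SE) (unadjusted p = 0.119, limma). Without saline array 1 that difference was 0.19. A dimmer probe of Cox5b, detected on all 6 arrays, gave 0.81 at 5 µmol/kg and −0.58 for 10 against 5 µmol/kg. It had 8.53 and 9.11 in saline, 9.81 and 9.46 at 5 µmol/kg, and 8.87 and 9.23 at 10 µmol/kg. On that probe both arrays at 5 µmol/kg lay above all other arrays. Cox5a, the partner of Cox5b, had log2 signals of 10.70 and 10.79 in saline, 10.89 and 10.88 at 5 µmol/kg, and 10.78 and 11.10 at 10 µmol/kg. The difference of Cox5a at 5 µmol/kg was 0.14 (95% interval −0.42 to 0.70).

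Cox6a1, the form of subunit VIa outside muscle, had log2 signals of 11.85 and 12.02 in saline, 12.50 and 12.23 at 5 µmol/kg, and 12.47 and 11.95 at 10 µmol/kg. Both arrays at 5 µmol/kg and array 1 at 10 µmol/kg lay above the other arrays. The muscle form Cox6a2 differed by −0.07 (95% interval −1.11 to 0.96), with a saline gap of 1.05 between its arrays. Cox6b1 differed by 0.21 and the testis form Cox6b2 by 0.11, the second with an interval from −1.22 to 1.44. Another probe of Cox6b1 gave 0.59 at 5 µmol/kg and, at 10 µmol/kg, 0.26 where the first gave −0.01. Cox7a2, the widely expressed form of subunit VIIa, had log2 signals of 5.15 and 5.78 in saline, 5.93 and 5.61 at 5 µmol/kg, and 5.41 and 5.44 at 10 µmol/kg, so both arrays at 10 µmol/kg lay below both at 5 µmol/kg, with a difference of −0.34 ± 0.29 (SE). The muscle form Cox7a1 differed by 0.27 at 5 µmol/kg with overlapping groups. Cox4i1, the common form of the largest nuclear-encoded subunit, differed by 0.19, Cox6c by −0.13 and Ndufa4, first described in complex I and now placed in complex IV, by 0.31. Of the isoforms below the filter, Cox4i2 was detected on 1 array, and Cox8b and Cox8c did not pass.

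Within complex V, the ATP synthase, Atp5pb had the smallest p in all 3 comparisons. Atp5pb, which encodes subunit b of the stalk that holds the catalytic head still, had log2 signals of 8.58 and 8.55 in saline, 10.18 and 9.77 at 5 µmol/kg, and 9.01 and 9.71 at 10 µmol/kg. The saline arrays nearly coincided, all 4 cadmium arrays lay above them, and both arrays at 10 µmol/kg lay below both at 5 µmol/kg. Atp5pb differed from saline by 1.41 ± 0.31 (SE) at 5 µmol/kg (unadjusted p = 0.00294, adjusted p = 0.525, limma) and 0.79 ± 0.31 (SE) at 10 µmol/kg (unadjusted p = 0.0392). A second bright probe of the gene gave 1.01 and 0.77, and a dim one, detected on 3 arrays, 0.17 and −0.14. Between the doses the second bright probe gave −0.25, with 9.40 and 8.98 at 5 µmol/kg overlapping 8.55 and 9.34 at 10 µmol/kg. The dim probe gave −0.31 between the doses. On the brightest probe, leaving out each array in turn gave 1.21 to 1.62 at 5 µmol/kg and 0.44 to 1.14 at 10 µmol/kg. On the 4 arrays bright for acinar genes alone, a choice made after seeing the data, the difference at 5 µmol/kg was 1.42, with 1 saline array. No test is drawn from it. It uses the same arrays as when saline array 1 is left out, so it is not a separate result. The other stalk genes that did not overlap saline at 5 µmol/kg were Atp5j (coupling factor 6), with 0.63, and Atp5o, with 0.43. Dimmer probes detected on all 6 arrays gave 0.99 for Atp5j and 1.53 for Atp5o at 5 µmol/kg. For 10 against 5 µmol/kg they gave −0.45 and −0.95, the second with an unadjusted p of 0.0396 in limma fitted to every probe.

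The catalytic head of complex V had a median of 0.34 over its 5 genes at 5 µmol/kg against saline, and the other 10 genes had 0.22. Atp5b, the catalytic beta subunit, had log2 signals of 13.02 and 12.36 in saline, 12.30 and 12.88 at 5 µmol/kg, and 13.20 and 12.30 at 10 µmol/kg. Array 1 was bright and array 2 dim both in saline and at 10 µmol/kg, the reverse of most subunits, and the groups overlapped at both doses with differences of −0.10 and 0.06. Atp5a1, the alpha subunit, differed by 0.28 on 1 probe and by −1.02 on another, whose log2 signals were 6.63 and 5.44 in saline, 4.602 and 5.43 at 5 µmol/kg, and 7.02 and 4.78 at 10 µmol/kg. Atp5c1, the rotating shaft, differed by 0.34, Atp5d by 0.43 and Atp5e by 0.38. Atp5g3 and Atp5g2 encode the same proton-carrying ring protein. Atp5g3 differed from saline by 0.11 at 5 µmol/kg and −0.15 at 10 µmol/kg, and Atp5g2 by 0.02 and −0.31, each with overlapping groups. Atp5k, a membrane subunit linked to pairing of the enzyme, had log2 signals of 5.10 and 6.25 in saline, 4.70 and 4.90 at 5 µmol/kg, and 4.75 and 4.80 at 10 µmol/kg. Both doses lay below both saline arrays, with differences of −0.88 ± 0.39 (SE) and −0.90 ± 0.39 (SE) (unadjusted p = 0.0601 and 0.0554, limma), and it was detected on 1 of 2 arrays at 5 µmol/kg.

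Several probes passed for 21 subunit genes, and they differed in sign for 2 genes at 5 µmol/kg against saline (Atp5a1 and Atp5mpl), for 5 at 10 µmol/kg against saline (Atp5a1, Atp5pb, Cox6b1, Ndufa3 and Ndufb8) and for 2 between the doses (Atp5mpl and Ndufv3). Among these, Ndufa3 differed by −0.04 and 0.03 on its 2 probes at 10 µmol/kg, and Ndufb8 by −0.04 and 0.19. The supercomplex factor Cox7a2l, which is not a subunit, had log2 signals of 8.88 and 8.95 in saline, 9.67 and 9.64 at 5 µmol/kg, and 9.18 and 9.83 at 10 µmol/kg. Its 4 cadmium arrays lay above both saline arrays, with 0.74 ± 0.28 (SE) at 5 µmol/kg and 0.59 ± 0.28 (SE) at 10 µmol/kg (unadjusted p = 0.0355 and 0.0757, limma). The pseudogene Ndufs5-ps differed by 0.28 at 5 µmol/kg, and its signal is uncertain because a pseudogene probe can also bind the parent transcript.

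Arrays of like acinar signal were set side by side as a description. Array 1 at 10 µmol/kg minus saline array 1, both dim for acinar genes, gave a subunit median of 0.13 with 49 of 68 above 0. Among the bright arrays, the medians relative to saline array 2 were 0.16 (46 of 68 above 0) and 0.05 (39 of 68) for the arrays at 5 µmol/kg and −0.03 (32 of 68) for array 2 at 10 µmol/kg. Array 2 at 10 µmol/kg minus arrays 1 and 2 at 5 µmol/kg gave −0.18 and −0.06. Relative to saline array 2, arrays 1 and 2 at 5 µmol/kg and array 2 at 10 µmol/kg gave 0.22, 0.08 and −0.01 for complex I, 0.23, 0.03 and −0.03 for III, 0.06, 0.03 and −0.07 for IV, and 0.03, −0.05 and −0.11 for V. Complex II, with 3 genes, broke this order with 0.09, −0.31 and 0.17. Array 2 at 10 µmol/kg minus array 2 at 5 µmol/kg was above 0 for complexes II (0.06) and IV (0.05) and below 0 for I, III and V. Each of these medians was smaller in size than the median gap of 0.43 between the 2 saline arrays over all 68 subunits. By complex that gap was 0.42 for I, 0.60 for II, 0.16 for III, 0.35 for IV and 0.48 for V. The 0.23 of complex III thus exceeded the saline gap of its own complex, in which 3 of 6 subunits were above 0. Regardless of sign, the saline gap of complex III had a median of 0.41.

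**Figure D4:**
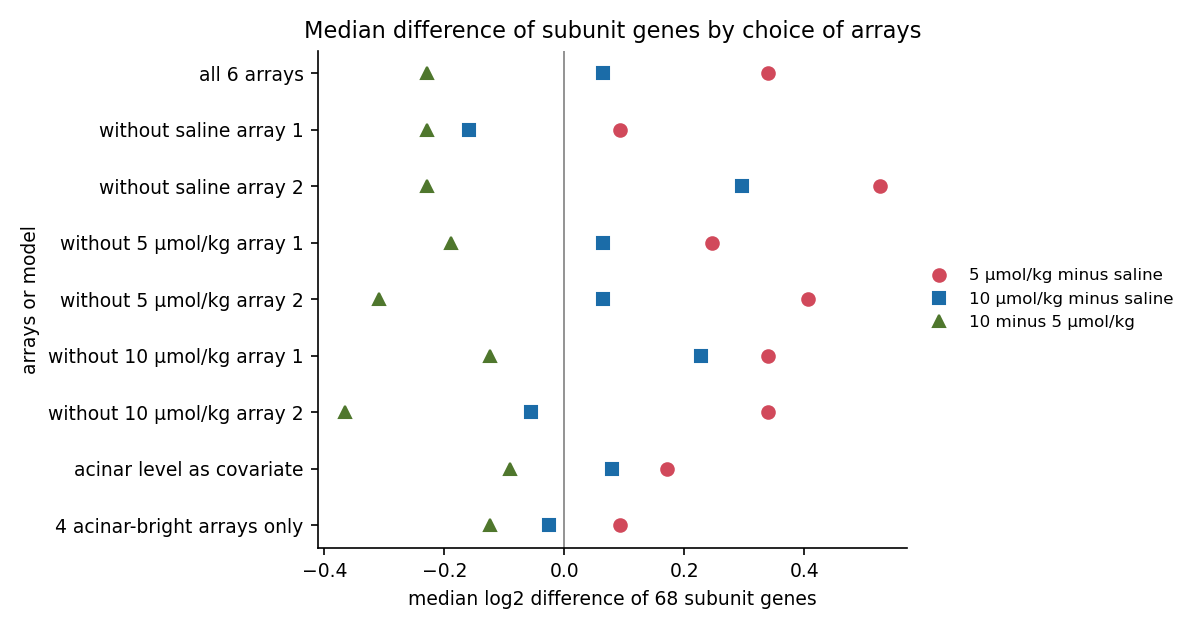
Median log2 difference of the 68 subunits in each of the 3 comparisons with all 6 arrays, with each array left out in turn, with the acinar level as a covariate and with only the 4 arrays bright for acinar genes. For 5 µmol/kg minus saline the median ran between 0.09 and 0.53 over the fits that left out 1 array.

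Other genes of the respiratory pathway were counted by list. Assembly factors had a median of 0.31 over 40 genes at 5 µmol/kg against saline, with 3 higher and 2 lower at an unadjusted p under 0.05 (7.5% and 5% of the list, near the 4.58% and 4.69% of all tested), 0.04 at 10 µmol/kg and −0.23 between the doses. Cytochrome c (Cycs), the carrier between complexes III and IV, and cytochrome c1 (Cyc1) of complex III were higher by 0.64 and 0.69 at 5 µmol/kg. At 10 µmol/kg they were higher by 0.32 and 0.21. Both genes had the arrays at 5 µmol/kg above both saline arrays, as did 21.8% of all tested. The 73 mitochondrial ribosomal proteins, which translate the mitochondrially encoded subunits, had medians of 0.37 at 5 µmol/kg (63 above 0, with 8 higher and 0 lower at an unadjusted p under 0.05, against 4.58% and 4.69% of all tested), 0.07 at 10 µmol/kg and −0.28 between the doses. Protein import genes had 0.27, 0.08 and −0.15 over 17 genes, and citric acid cycle enzymes 0.20, −0.01 and −0.12 over 14. Glycolytic enzymes had 0.18, 0.17 and −0.01 over 13 genes, and regulators of mitochondrial biogenesis, such as Nrf1, Gabpa and Tfam, −0.01, −0.12 and −0.03 over 15.

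**Figure D5:**
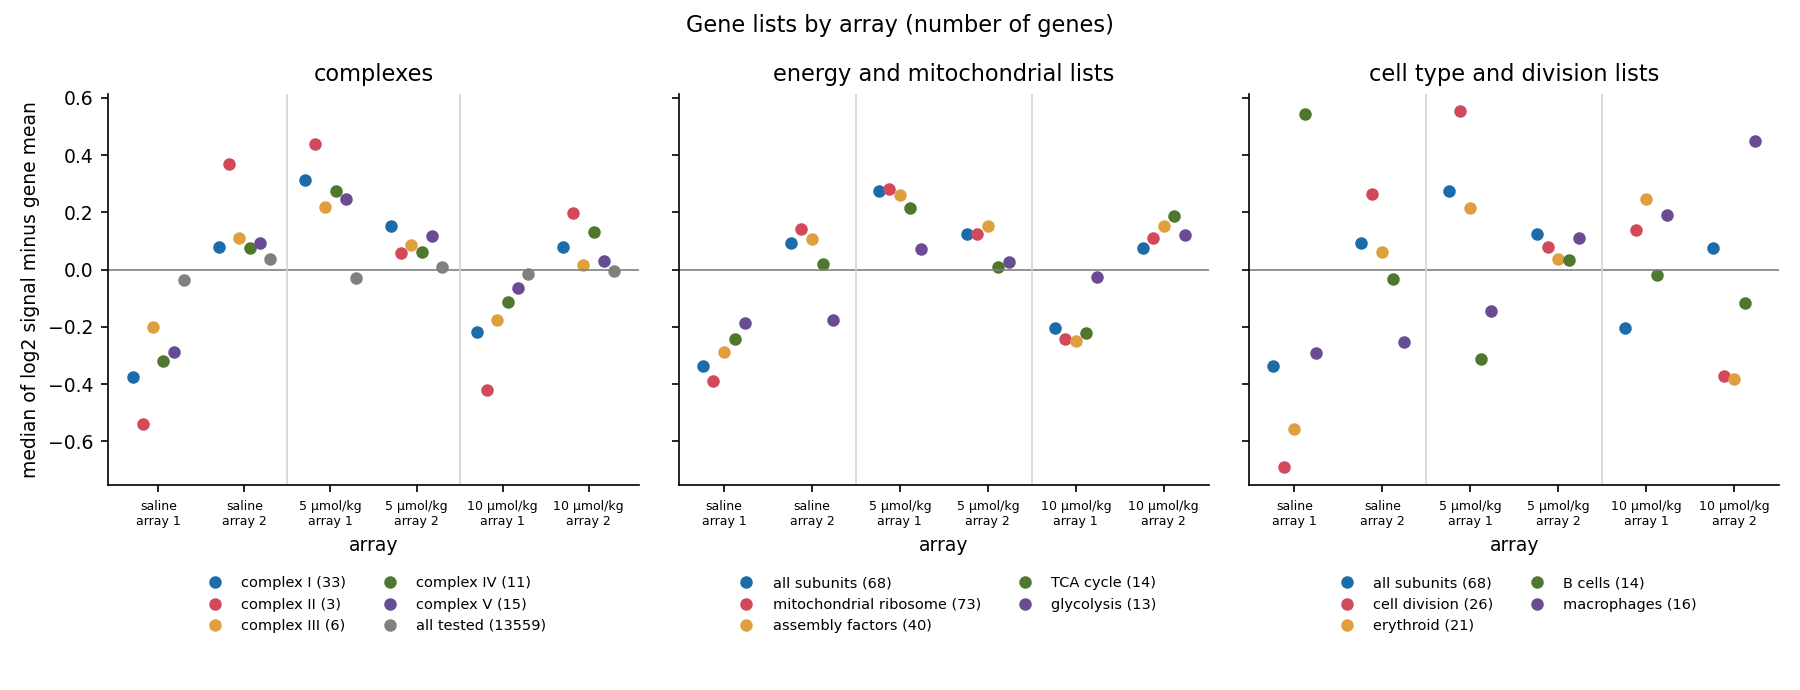
Median log2 signal of each gene list on each array after centring every gene on its mean, for the 5 complexes and all genes tested (left), energy and mitochondrial lists (middle) and cell type and division lists (right), with the number of genes in brackets. The subunits had −0.33 and 0.09 in saline, 0.27 and 0.12 at 5 µmol/kg, and −0.20 and 0.08 at 10 µmol/kg.

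Markers of cell types and of division varied between the arrays as well, and their part in the subunit values was not tested. The 26 genes of cell division had a median of 0.53 at 5 µmol/kg against saline (26 of 26 above 0, against 48.7% of all tested, and 5 higher at an unadjusted p under 0.05, against 4.58%), 0.08 at 10 µmol/kg and −0.42 between the doses. Their centred medians were −0.69 and 0.26 in saline, 0.55 and 0.08 at 5 µmol/kg, and 0.14 and −0.37 at 10 µmol/kg, so that saline array 1 was again the lowest and array 1 at 5 µmol/kg the highest, while array 1 exceeded array 2 at 10 µmol/kg where the subunits did the opposite. Erythroid genes, of which 21 passed, had 0.28, 0.07 and −0.08 in the 3 comparisons, and their summed signal was 1.22% and 1.33% of the total in saline, 1.31% and 1.27% at 5 µmol/kg, and 1.49% and 1.09% at 10 µmol/kg. B cell genes, of which 14 passed, had −0.46, −0.30 and −0.03. Their summed shares were 0.234% and 0.145% in saline, 0.109% and 0.154% at 5 µmol/kg, and 0.154% and 0.156% at 10 µmol/kg. At 5 µmol/kg against saline, 5 erythroid genes were higher and 0 lower at an unadjusted p under 0.05 in limma. By the same measure 0 B cell genes were higher and 4 lower, against 4.58% higher and 4.69% lower of all tested. The acinar medians were 3.42, −0.18 and −3.59 over 25 genes, 0 of which had groups that did not overlap. Of all tested, groups did not overlap for 21.8% higher and 25.2% lower at 5 µmol/kg against saline. The shares were 11% and 11.5% at 10 µmol/kg against saline, and 15.2% and 15.7% between the doses.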

How the data were processed

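Spleen RNA of 6 samples was labelled with biotin and hybridised to Illumina bead arrays, per the labels' protocols. The authors deposited 1 intensity per probe and array, on a linear scale. The table is described as not normalized, but its sorted values differed by at most 0.243 units between arrays and reached down to −20.1, so it had been background-subtracted and quantile-normalized before deposit. No source used here names the software. They also deposited a detection p-value per probe, which was used as a filter. The series matrix held the same intensities for 45279 probes.

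Signals were processed with neqc of limma 3.58.1 in R 4.3.3 (offset 16, log2), a method meant for raw signals, so fold changes of dim genes are understated. Probes detected at p under 0.05 on at least 2 arrays were kept (18960). The platform annotation named a single gene for 34885 probes; 18 probes with several symbols and 10378 with none were left unnamed. Where a gene had several probes, the one with the highest mean was used, which left 10823 named genes and 2736 unnamed probes. A model with a mean per group was fitted to all 6 arrays (3 residual and 3.64 prior degrees of freedom), with Benjamini-Hochberg adjustment over 13559 tests and a threshold of 0.05.

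Members and lists were chosen with earlier results of these data known, so list medians carry no test. Named in each complex were the 2 genes with the highest mean signal, the gene with the smallest p in each comparison, all Sdh genes, isoform families, genes with probes of opposite sign and genes that are not subunits. Ndufc2, Ndufa13, Ndufb11, Uqcrc1, Uqcrc2, Cox6c, Ndufa4 and the further Atp5 genes were named after their values were seen. Promoter sequences came from a RefSeq table of GRCm38.p6. Alternatives changed the background correction, offset, filter, probe choice, variance model, arrays fitted and members, added the acinar level or the replicate number, and left out each array in turn. The tests were tried on simulated data.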

Additional observations from a re-analysis of the deposited data

How the results depend on the processing

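No gene passed adjustment under any alternative except 2. On the 4 arrays bright for acinar genes, added after seeing the data, saline and 10 µmol/kg have 1 array each, so the spread comes from the 5 µmol/kg pair alone (1 residual degree of freedom) and the lone arrays are assumed to vary like it; there 287 genes passed for the lower dose against saline, 306 for the higher dose and 201 in the F test, counts from which nothing is read; with every probe tested on its own, 1 passed for 10 against 5 µmol/kg. On those 4 arrays the 5 µmol/kg minus saline difference uses the same arrays as when saline array 1 is left out. Its medians are therefore the same values, 0.093 for all subunits and 0.15, −0.11, 0.086 and −0.0011 for complexes I, II, III and V. They are not a separate result, and why they differ from the medians on all 6 arrays was not tested. Leaving out each array in turn gave, for 5 µmol/kg minus saline, 0.093 to 0.53 over all subunits, 0.15 to 0.68 for complex I, −0.11 to 0.84 for II, 0.086 to 0.37 for III, 0.049 to 0.43 for IV and −0.0011 to 0.47 for V, with the low value without saline array 1 and the high value without saline array 2. For 10 µmol/kg minus saline it gave −0.16 to 0.30 over all subunits, −0.14 to 0.32 for complex I, −0.18 to 0.18 for III, −0.066 to 0.29 for IV and −0.21 to 0.29 for V, with the same arrays left out at each end, and −0.32 to 0.45 for II, without arrays 2 and 1 at 10 µmol/kg. For 10 minus 5 µmol/kg the median of all subunits stayed below 0 under the alternatives run, and complex IV was at 0.05 with the acinar level as a covariate. Some alternatives keep the same group means, so they could not change a direction. Among them are the variance model, the replicate number and leaving out an array of the group not compared. Of 304 values of single genes under alternatives, 300 kept their direction, a count that includes these fixed ones. The exceptions were Sdhd at 10 µmol/kg minus saline, at −0.21 without saline array 1, −0.32 without array 2 at 10 µmol/kg and −0.021 on the 2 dim arrays (0.50 without array 1 at 10 µmol/kg), and Uqcrq, at 0.041 without array 2 at 10 µmol/kg and −1.35 without array 1. Replicate numbers did not pair the arrays (correlation of deviations −0.28 between saline and 5 µmol/kg, 0.58 between saline and 10 µmol/kg, −0.11 between the doses). Each group has 1 array of each number, so a block for the replicate number cannot change the subunit medians of 0.34, 0.07 and −0.23. It changes only the spread used by limma. With the block, 1433 genes had an unadjusted p under 0.05 at 5 µmol/kg, against 1257 without it. With the numbers at 5 µmol/kg exchanged, 2131 did. With 2 arrays a group and no count of animals per array, these data cannot show small differences of single subunits, and dim genes such as Sdhd and Ndufb11 rest on 2 detected arrays of 6.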

Other observations

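Lists outside the respiratory pathway gave the following medians for 5 µmol/kg minus saline, 10 µmol/kg minus saline and 10 minus 5 µmol/kg. The 16 macrophage genes had 0.28, 0.53 and 0.37, and 7 were higher and 1 lower at 10 µmol/kg than in saline at an unadjusted p under 0.05 in limma, against 0.996% and 0.634% of all tested. The 15 neutrophil genes had 0.27, 0.23 and −0.06, with 5 higher at each dose by the same measure, against 4.58% of all tested at 5 µmol/kg and 0.996% at 10 µmol/kg. The 13 T cell genes had −0.14, 0.01 and 0.0047. The 55 cytosolic ribosomal proteins, which build the ribosomes outside mitochondria, had 0.12, 0.08 and −0.08.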
